A study of Homo sapiens with 6 samples.

Results

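The RB pathway at the G1 checkpoint was followed in C4-2B prostate cancer cells through 10 genes, which were taken by symbol from an expression table of 58024 genes. They were the RB family (RB1, RBL1 and RBL2), the D cyclins (CCND1, CCND2 and CCND3), the kinases CDK4 and CDK6, and CDKN2A and CDKN2B of the INK4 inhibitors. C4-2B is a castration-resistant human line derived from LNCaP cells. The parental cells, labelled as control, were passaged with vehicle for as long as the resistant cells. The vehicle was DMSO, at 1% according to the labels and at most 0.1% according to the methods. The medium of both groups held 10% serum. The resistant cells are the population that survived enzalutamide, an antiandrogen, raised from 1 to 20 µM over at least 6 months, and they were then kept in 5 µM of the drug. The extraction protocol names 10 µM enzalutamide and leaves unclear whether the parental cells also received it. Each group had 3 libraries, numbered 0, 1 and 2, and no source states that they came from separate cultures, so the p-values below measure only the spread between these libraries. Selection and continued exposure to the drug cannot be told apart in this design.

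In the textbook account, mitogens raise the D cyclins, which bind CDK4 or CDK6, and the active kinases phosphorylate RB and its relatives p107 and p130. Phosphorylated RB releases the E2F factors, which switch on genes for DNA replication, while p107 and p130 form the DREAM complex with the MuvB core and hold cell cycle genes off in resting cells. The INK4 proteins p16 and p15 bind CDK4 and CDK6 and block them, and loss of RB1 is a known step in the lineage change of treated prostate cancer.

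The values are FPKM, fragment numbers scaled for transcript length and for the mapped fragments of the library, so levels of different genes can be set side by side. The FPKM values of a library summed to between 792975 and 870110, with 21956 to 27153 genes above 0, and the depth estimated from the FPKM worth of 1 read was 13300000 to 20700000 reads per library. On log2(FPKM + 0.1), libraries of the same cells correlated at r = 0.911 to 0.929 and libraries of different cells at 0.782 to 0.802, as descriptions across genes. The luminal prostate identity of the line was checked on its markers: all 9 were above 0 in every library, with a summed level of 4146 to 4910 FPKM in parental and 1171 to 1251 FPKM in resistant cells. KLK3, which androgen induces in prostate cells, fell from 2489, 2321 and 2857 FPKM to 46.8, 43.5 and 41.8 FPKM. Markers of other cell types were low, with fibroblast markers at 6.65 to 8.92 FPKM summed over 5 genes in parental and 8.26 to 14.7 FPKM in resistant cells. DCN, a fibroblast proteoglycan, had 0 in each parental library and 3.63 to 4.35 FPKM in resistant cells, and its part in the results was not tested. Basal, leukocyte and endothelial lists each summed to at most 1.18 FPKM, with CD3E at 0 in all 6 libraries.

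Of the 10 genes, 9 averaged at least 0.1 FPKM over the 6 libraries and were tested with limma and Benjamini-Hochberg adjustment over 24468 genes. CCND1, CDK4, CDK6 and RBL1 were called higher in resistant cells at an adjusted p under 0.05, CCND3 was called lower, and RB1, RBL2, CDKN2A and CDKN2B were not called. Across all genes tested 44.4% were called, 22.1% higher and 22.3% lower, and among protein-coding genes tested 55.7% were called, 28.9% higher and 26.7% lower, so 5 calls among 9 genes is near the background and is no result about these genes as a group. The median log2 fold change of the 9 genes was 0.44, beside -0.05 over all genes tested. In bulk RNA, fewer cells with a transcript and less of it per cell cannot be told apart.

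**Figure D1:**
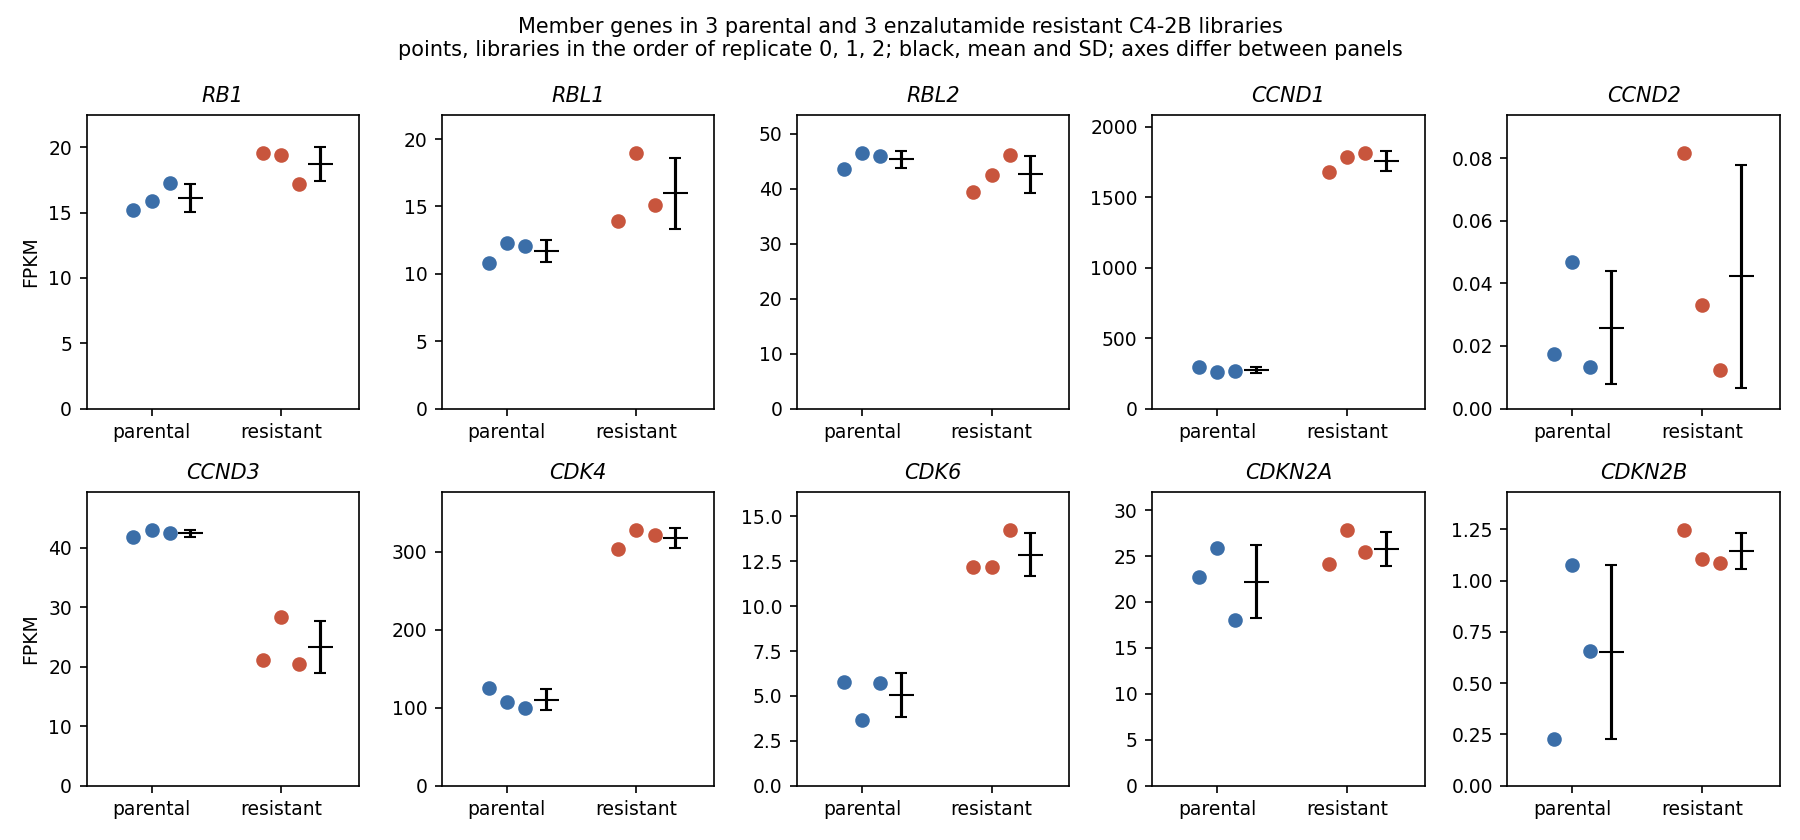
FPKM (vertical axis, linear from 0 and different in each panel) of the 10 genes in the 3 parental (blue) and 3 resistant (red) C4-2B libraries, with the mean and SD in black. The resistant points of CCND1, CDK4 and CDK6 lie far above the parental points and those of CCND3 below them, while the points of RB1, RBL2, CCND2 and CDKN2A overlap.

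The promoters of CDK4 and RBL1 are shown because their genes were called higher and their windows led the members with a promoter entry in a motif. CDK4 held the most E-boxes and RBL1 the most E2F matches. For other motifs searched, other members held more matches. Promoters and motifs were thus picked by their matches, and the shares of all windows below carry no test. RefSeq promoter windows (GRCh38.p14, 250 bases before to 50 after each transcript start) were at hand for 8 members, in 13 entries, among 35116 entries in all. CCND1 and CCND2 had no entry, so their promoters were not searched. The stretch of the CDK4 promoter at chr12:57752401-57752530 (minus strand, 5′ to 3′ of the gene), with the E-box CACGTG in capitals, reads
CDK4: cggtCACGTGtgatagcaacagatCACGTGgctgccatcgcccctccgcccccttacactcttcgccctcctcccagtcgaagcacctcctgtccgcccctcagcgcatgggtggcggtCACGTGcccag
The stretch before the start of RBL1 at chr20:37095998-37096057 (minus strand, 5′ to 3′ of the gene), with the E2F matches in capitals, reads
RBL1: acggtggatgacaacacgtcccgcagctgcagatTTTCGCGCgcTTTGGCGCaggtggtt

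The 3 E-boxes of CDK4 began 216, 196 and 101 bases before the transcript start. An E-box occurred at least once in 7.26% of all promoter windows and 3 or more times in 0.0940% of them. One of the windows of CDK6 held 1 E-box, and the windows of the other members with an entry held none. The E2F motif was searched on both strands as TTTGGCGC, TTTCCCGC, TTTGCCGC and TTTCGCGC, and the 2 matches of RBL1 began 26 and 16 bases before its start and did not overlap. Such a match occurred in 3.31% of all windows and 2 or more in 0.145%, and no window of another member held one. Searched in the same way, the GC box GGGCGG (45.0% of all windows) occurred in windows of CCND3, CDK4, CDK6, CDKN2A, CDKN2B and RBL2, CCAAT (34.6%) in windows of CCND3 and RBL2, and the cell cycle element TTTGAA (15.2%) in a window of RBL2. The CRE element TGACGTCA (1.85% of all windows) occurred in no window of a member. A match is a run of letters and not a site shown to be bound in these cells.

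The D cyclins, which activate CDK4 and CDK6, moved in opposite directions. CCND1 (chr11:69641156-69654474, GRCh38), the cyclin D1 gene, stood at 296, 257 and 268 FPKM in parental and at 1678, 1787 and 1812 FPKM in resistant cells. Every resistant library was above every parental one, and the gene moved from the 98.7th to the 99.9th percentile of the genes tested. The log2 fold change was 2.68 (SE 0.07, 95% interval 2.51 to 2.86, limma adjusted p = 4.7e-06), a ratio of means of 6.42. CCND3 (chr6:41934934-42050357), the cyclin D3 gene, stood at 41.9, 43.0 and 42.6 FPKM in parental and at 21.2, 28.4 and 20.5 FPKM in resistant cells. The parental values lay close together, the resistant values were all lower, and library 1 was the highest of them. The log2 fold change was -0.88 (SE 0.14, 95% interval -1.21 to -0.55, limma adjusted p = 0.0027). When single libraries were left out, the log2 fold change stayed between 2.64 and 2.74 for CCND1 and between -1.03 and -0.79 for CCND3, called each time.

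CCND2 (chr12:4269771-4305353), the cyclin D2 gene, stood at 0.0175, 0.0467 and 0.0134 FPKM in parental and at 0.0816, 0.0330 and 0.0123 FPKM in resistant cells. The groups overlapped and the gene fell under the filter, so it was not tested. The values correspond to an estimated 1.39 to 10.9 reads per library, a depth at which a difference was not detectable. Its row lies in a stretch with 2 antisense genes, and whether strand was used in the counting is not given in the sources used here.

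The makeup of the D cyclin transcripts changed. CCND1 made up 85.7% to 87.6% of the summed D cyclin FPKM in the parental libraries and 98.4% to 98.9% in the resistant ones. CCND3 made up 12.4% to 14.3% and 1.12% to 1.56%. The sum rose from 316 ± 19.1 to 1782 ± 72.4 FPKM (SD, n = 3), a ratio of 5.64. These sums and the sums and ratios below were formed after the values were seen and carry no test.

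The kinases that the D cyclins activate were both higher. CDK4 (chr12:57747727-57756013) stood at 125, 107 and 99.0 FPKM in parental and at 304, 327 and 321 FPKM in resistant cells. The groups lay far apart, with a log2 fold change of 1.53 (SE 0.10, 95% interval 1.29 to 1.77, limma adjusted p = 7.7e-05). CDK6 (chr7:92604921-92836573), the kinase that shares its cyclins, stood at 5.80, 3.66 and 5.71 FPKM in parental and at 12.2, 12.2 and 14.2 FPKM in resistant cells. Parental library 1 was the lowest, and the groups did not overlap. The log2 fold change was 1.36 (SE 0.21, 95% interval 0.86 to 1.86, limma adjusted p = 0.0025). CDK4 made up 94.5% to 96.7% of the summed kinase FPKM in parental and 95.8% to 96.4% in resistant cells, so the share overlapped between groups while the sum rose from 115 ± 13.9 to 330.2 ± 12.6 FPKM. Both kinases were called under all 15 alternatives, with log2 fold changes of 1.45 to 1.62 for CDK4 and 1.14 to 1.47 for CDK6 when each library was left out.

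**Figure D2:**
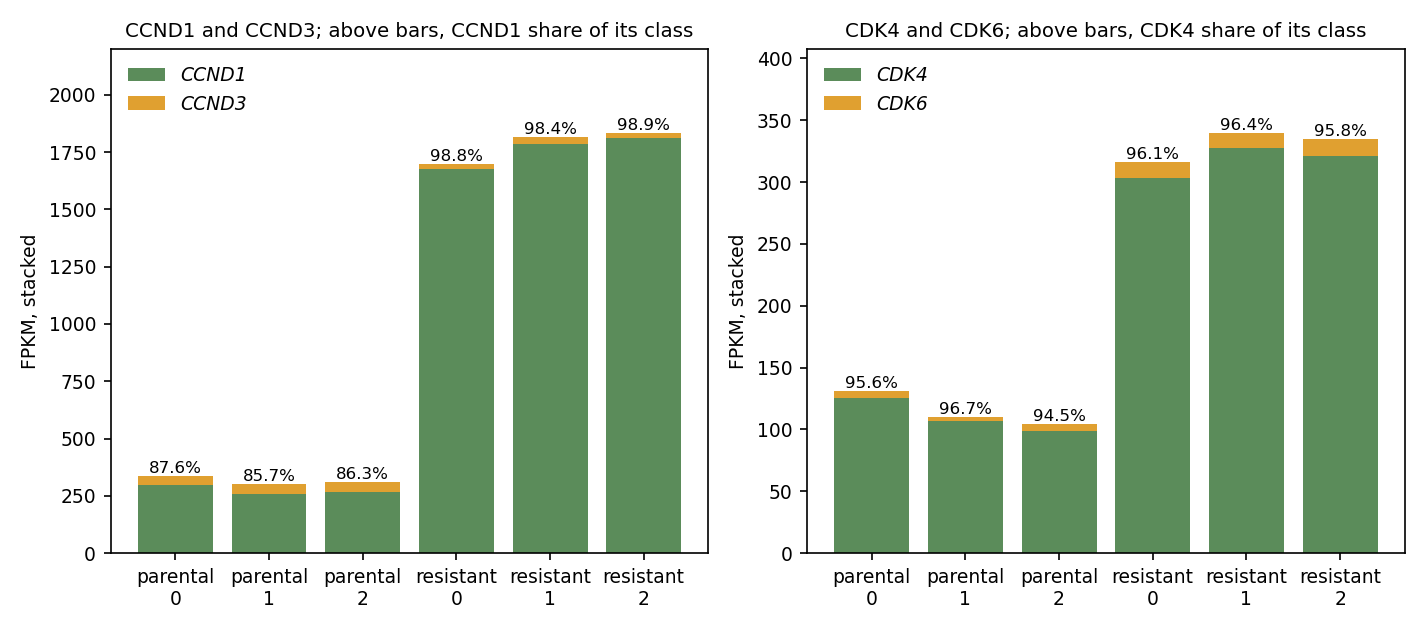
Stacked FPKM of CCND1 and CCND3 (left) and of CDK4 and CDK6 (right) in each library, with the share of CCND1 or CDK4 in its class above each bar (CCND2 is too low to be seen). The D cyclin share of CCND1 lies at 98.4% or above in the resistant libraries, while the kinase share of CDK4 overlaps between the groups.

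The RB family, whose proteins the kinases phosphorylate, changed little in sum. RB1 (chr13:48303744-48599436), which encodes the pocket protein that restrains E2F, stood at 15.2, 15.9 and 17.3 FPKM in parental and at 19.6, 19.4 and 17.2 FPKM in resistant cells. Resistant library 2 lay just below the highest parental library, and the other resistant libraries lay above all parental ones. The log2 fold change was 0.21 (SE 0.10, 95% interval -0.03 to 0.46, limma adjusted p = 0.14) and was not called. The interval reflects only the spread between these libraries, and its lower bound lies slightly below 0. Protein or phosphorylation was not measured. Under median ratio scaling, which moves the median of all genes by 0.10, RB1 was called higher (0.32, limma adjusted p = 0.045).

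RBL1 (chr20:36996349-37095997), the p107 gene, stood at 10.8, 12.3 and 12.1 FPKM in parental and at 13.9, 19.0 and 15.1 FPKM in resistant cells. The groups did not overlap, and resistant library 1 was the highest. The log2 fold change was 0.44 (SE 0.14, 95% interval 0.09 to 0.78) at an adjusted p of 0.048 by limma, next to the threshold. The call was lost without parental library 0, 1 or 2 and without resistant library 1 or 2 (limma adjusted p = 0.074 to 0.13), and it was kept without resistant library 0 (0.041). It was also lost with the replicate number as a block and under 3 further alternatives (limma adjusted p = 0.0505 to 0.0873).

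RBL2 (chr16:53433977-53491648), the p130 gene, had the highest level of the family, at 43.6, 46.5 and 46.0 FPKM in parental and 39.4, 42.4 and 46.1 FPKM in resistant cells. The groups overlapped, and the log2 fold change of -0.09 (SE 0.08, 95% interval -0.29 to 0.11, limma adjusted p = 0.41) was not called and changed sign under 2 other scalings. The family sum was 73.2 ± 3.09 FPKM in parental and 77.4 ± 4.06 FPKM in resistant cells, with overlapping ranges. Within that sum RBL1 made up 15.5% to 16.5% in parental and 19.1% to 23.5% in resistant cells. RBL2 made up 61.1% to 62.7% and 52.5% to 58.8%, and RB1 made up 21.3% to 22.9% and 21.9% to 26.8%. The order RBL2, RB1, RBL1 held in each of the 6 libraries, and in resistant cells the ranges of RB1 and RBL1 overlapped.

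The INK4 inhibitors p16 and p15 lie next to each other on chromosome 9. CDKN2A (chr9:21967752-21995301), which encodes p16 and, from another first exon, ARF, stood at 22.7, 25.9 and 18.0 FPKM in parental and at 24.1, 27.8 and 25.5 FPKM in resistant cells. The groups overlapped, and the log2 fold change was 0.23 (SE 0.15, 95% interval -0.13 to 0.59, limma adjusted p = 0.26). A value per gene does not separate p16 from ARF. CDKN2B (chr9:22002903-22009305), the p15 gene, stood at 0.227, 1.08 and 0.656 FPKM in parental and at 1.25, 1.10 and 1.09 FPKM in resistant cells. Its parental libraries spread widely and reached up to the resistant ones without overlapping them, and the log2 fold change of 0.91 (SE 0.51, 95% interval -0.32 to 2.13, limma adjusted p = 0.19) was not called. Without parental library 0 it was 0.40 and without parental library 1 it was 1.32, on an estimated 17.8 to 81.5 reads per library. Both genes share their stretch with antisense transcripts.

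Of the 9 tested genes, 6 did not overlap between the groups, 5 of them higher and 1 lower, beside 54.8% of all genes tested, 26.6% higher. CCND1, CDK4 and CDK6 were called with a change of at least 2-fold, beside 28.5% of all genes tested. The ratio of summed D cyclin to RB1 FPKM was 18.0 to 22.2 in parental and 86.9 to 106 in resistant cells. The ratio of summed CDK4 and CDK6 to summed CDKN2A and CDKN2B FPKM was 4.10 to 5.72 and 11.7 to 12.6. With the further INK4 genes CDKN2C and CDKN2D in the sum, the ratio was 2.67 to 3.12 and 5.15 to 5.96.

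**Figure D3:**
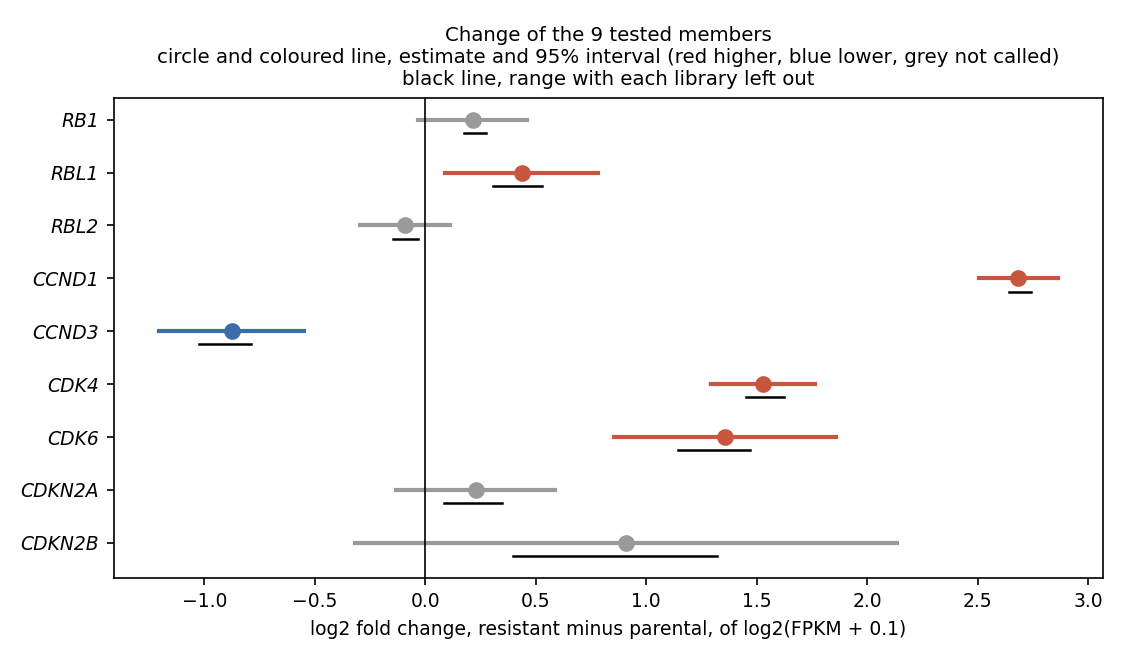
Log2 fold change of log2(FPKM + 0.1), resistant minus parental, for the 9 tested genes, with the 95% interval (red called higher, blue lower, grey not called) and below it, in black, the range over fits with each library left out. CCND1 stands at 2.68, CDK4 at 1.53 and CDK6 at 1.36, CCND3 stands at -0.88, and the intervals of RB1, RBL2, CDKN2A and CDKN2B cross 0.

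The other genes of the pathway were described through 12 lists with 123 genes, of which 119 were tested, 45 were called higher and 28 lower, with a median log2 fold change of 0.15. Of the protein-coding genes that averaged 1 FPKM or more, 58.2% were called, 28.6% higher and 29.6% lower, so the share of calls over the lists as a whole is near that of expressed genes. All 5 further CDK inhibitors were called. CDKN1A, which encodes p21, stood at 90.4, 75.1 and 83.3 FPKM in parental and at 28.1, 29.6 and 31.0 FPKM in resistant cells. All resistant libraries were lower, with a log2 fold change of -1.48 (SE 0.09, limma adjusted p = 6.9e-05). The INK4 genes CDKN2D (p19) and CDKN2C (p18) rose by 1.11 and 0.80 on the log2 scale, and the p57 and p27 genes CDKN1C and CDKN1B by 0.92 and 0.70. The call of CDKN2C was lost without resistant library 0, 1 or 2 and with the replicate number as a block, that of CDKN1B without parental library 0 or resistant library 2, and the count of higher calls was 2 without resistant library 2.

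Of the cyclin E, cyclin A, CDK2 and CDC25A genes, which act after the D cyclins at the start of S phase, 5 of 6 were tested, 3 were called higher and 1 lower. CDK2 rose from 66.0 ± 1.33 to 163 ± 4.79 FPKM (log2 fold change 1.30, SE 0.06), CCNA2 rose by 0.72 and CCNE2 by 0.65 on the log2 scale. CCNE1 fell from 10.1, 9.54 and 13.5 FPKM to 6.67, 4.88 and 6.92 FPKM (log2 fold change -0.83, SE 0.20), so the cyclin E genes, like the D cyclin genes, moved in opposite directions.

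Among the 10 E2F and DP factors, which pair to bind DNA, 2 were called higher (4 under quantile normalization) and 3 lower, with a median of 0.08. E2F2, an activating factor, stood at 5.07, 5.67 and 4.96 FPKM in parental and at 24.1, 25.4 and 25.6 FPKM in resistant cells. The groups lay far apart (log2 fold change 2.24, SE 0.10, limma adjusted p = 2.6e-05). E2F1 rose by 0.46 on the log2 scale, and E2F3, the other activator, fell by 0.66. Of the 7 genes of the MuvB core, B-MYB and FOXM1, which drive late cell cycle genes, LIN9 rose by 1.29 and MYBL2, FOXM1 and LIN37 fell by 1.38, 0.76 and 0.48.

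Of 22 E2F targets of DNA replication, 13 were called higher and 1 lower, with a median of 0.49. The helicase subunit genes MCM7 and MCM6 rose from 152 ± 5.90 to 328 ± 28.2 FPKM and from 23.4 ± 0.783 to 52.5 ± 5.12 FPKM, and PCNA, the sliding clamp, rose from 107 ± 6.80 to 224 ± 16.2 FPKM. TK1, the cytosolic thymidine kinase, was the 1 that fell, by 0.58 on the log2 scale. Of 20 mitotic targets of DREAM and FOXM1, 5 were called higher and 6 lower, with a median of -0.10. CDK1, the mitotic kinase, fell from 311 ± 7.35 to 108 ± 3.15 FPKM and AURKA, a spindle kinase, by 0.98 on the log2 scale, while NEK2, a centrosome kinase, rose by 1.03.

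Of 13 chromatin partners of RB, 4 were called higher and 1 lower, with a median of 0.09. The deacetylase genes HDAC2 and HDAC1 rose by 0.90 and 0.74 on the log2 scale, and SUV39H1, a histone H3 lysine methyltransferase, fell from 7.97 ± 0.792 to 2.65 ± 0.119 FPKM. Of 10 genes that act in D cyclin turnover, DDB1 rose by 0.84 and DYRK1B, USP2 and FBXO31 fell by 1.11, 0.91 and 0.63, with a median of -0.16. Of 6 genes for CDK activation and folding, 5 were called lower and none higher, with a median of -0.69. CCNH, the cyclin of the CDK-activating kinase, fell from 135 ± 7.95 to 64.2 ± 4.51 FPKM, and CDC37, the co-chaperone that loads kinases such as CDK4 onto HSP90, fell from 177 ± 20.4 to 109.9 ± 5.32 FPKM. Of 6 genes of p27 and cyclin E turnover, 4 were called higher and 2 lower, with a median of 0.44. CKS1B, the cofactor of SKP2, rose from 6.97 ± 0.680 to 26.3 ± 2.37 FPKM and its paralog CKS2 fell from 199 ± 7.73 to 101 ± 3.65 FPKM.

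Of 9 regulators of the CDKN2A and CDKN2B locus, 5 were called higher and 1 lower, with a median of 0.48. ID1, an inhibitor of basic helix-loop-helix factors, rose from 40.1 ± 0.608 to 173 ± 5.17 FPKM, CBX7, a Polycomb subunit, rose by 0.77 on the log2 scale, and TBX3, a repressor, fell by 0.50. The count of higher calls in this list was 3 without parental library 0, 1 or 2 or without resistant library 2. Of 9 lineage change genes that are studied with RB1 loss, 6 were tested, 3 were called higher (5 under median ratio scaling) and 1 lower, with a median of 0.41. SYP, a synaptic vesicle gene, rose from 1.70 ± 0.751 to 49.6 ± 3.71 FPKM, CHGA rose to 0.563 ± 0.0371 FPKM, and EZH2, the Polycomb methyltransferase, rose by 0.56 on the log2 scale. SOX2 and MYCN were under the filter.

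**Figure D4:**
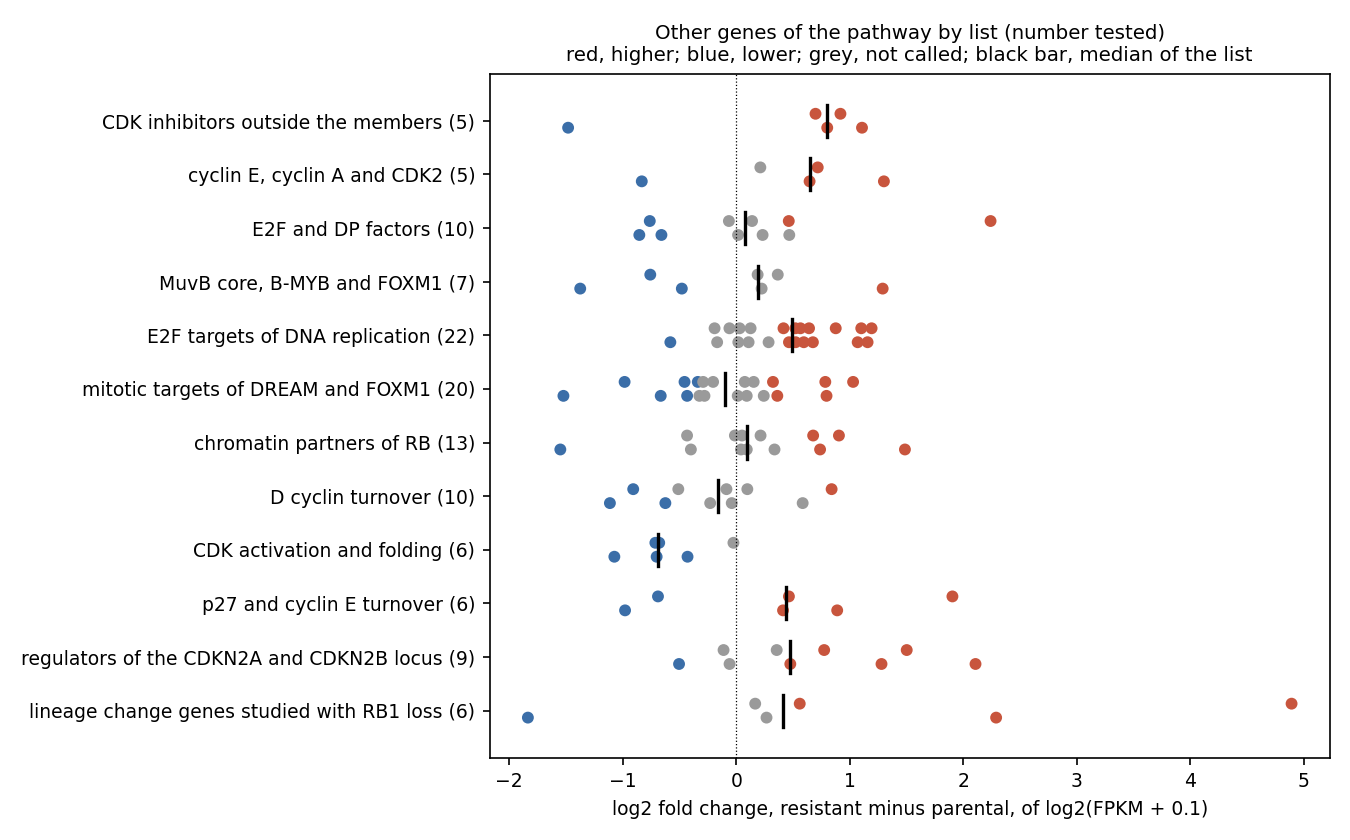
Log2 fold change of log2(FPKM + 0.1), resistant minus parental (horizontal axis), of the tested genes of the 12 pathway lists, 1 point per gene (red called higher, blue lower, grey not called), with the median of each list as a black bar. The list of DNA replication targets has 13 red points and 1 blue point, while the mitotic list has 5 red and 6 blue.

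The tested protein-coding genes nearest to the members, up to 3 on each side within 500 kb, gave 42 genes, of which 13 were called higher and 7 lower. Among all protein-coding genes tested 55.7% were called, 28.9% higher and 26.7% lower. The share of calls among the neighbors was not above that background, and the genes around a single member were too few to compare with it. Around CDK4, 4 of 6 neighbors were called higher and none lower. AGAP2 rose from 0.476 ± 0.435 to 14.9 ± 0.461 FPKM, MARCHF9 from 9.15 ± 0.291 to 25.4 ± 1.89 FPKM, METTL1 from 22.6 ± 1.25 to 48.7 ± 8.58 FPKM and TSPAN31 from 18.2 ± 1.22 to 32.0 ± 2.40 FPKM. OS9 and CYP27B1, with log2 fold changes of 0.13 and 0.55, were not called. CDK4, AGAP2, TSPAN31 and MARCHF9 were assigned to a single stretch in the table and TSPAN31 and MARCHF9 overlap CDK4, so how reads were divided among them was not tested.

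Around CCND1, the overlapping ORAOV1 had a log2 fold change of 0.04 and was not called. MYEOV, 299 kb away, had 0 in each parental library and 2.32 to 2.81 FPKM in resistant cells. Around CDK6, VPS50 rose by 0.80 on the log2 scale and 4 genes were not called; the call of VPS50 was lost without parental library 0 or 2. Around CCND3, BYSL fell by 0.60 and C6orf132 by 1.10, and the other 4 were not called. LPAR6, which lies inside RB1, fell from 1.65 ± 0.762 to 0.221 ± 0.107 FPKM, ITM2B fell by 0.70 on the log2 scale, and RCBTB2 rose by 1.45. MTAP, next to CDKN2A, had a log2 fold change of -0.18 and was not called.

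**Figure D5:**
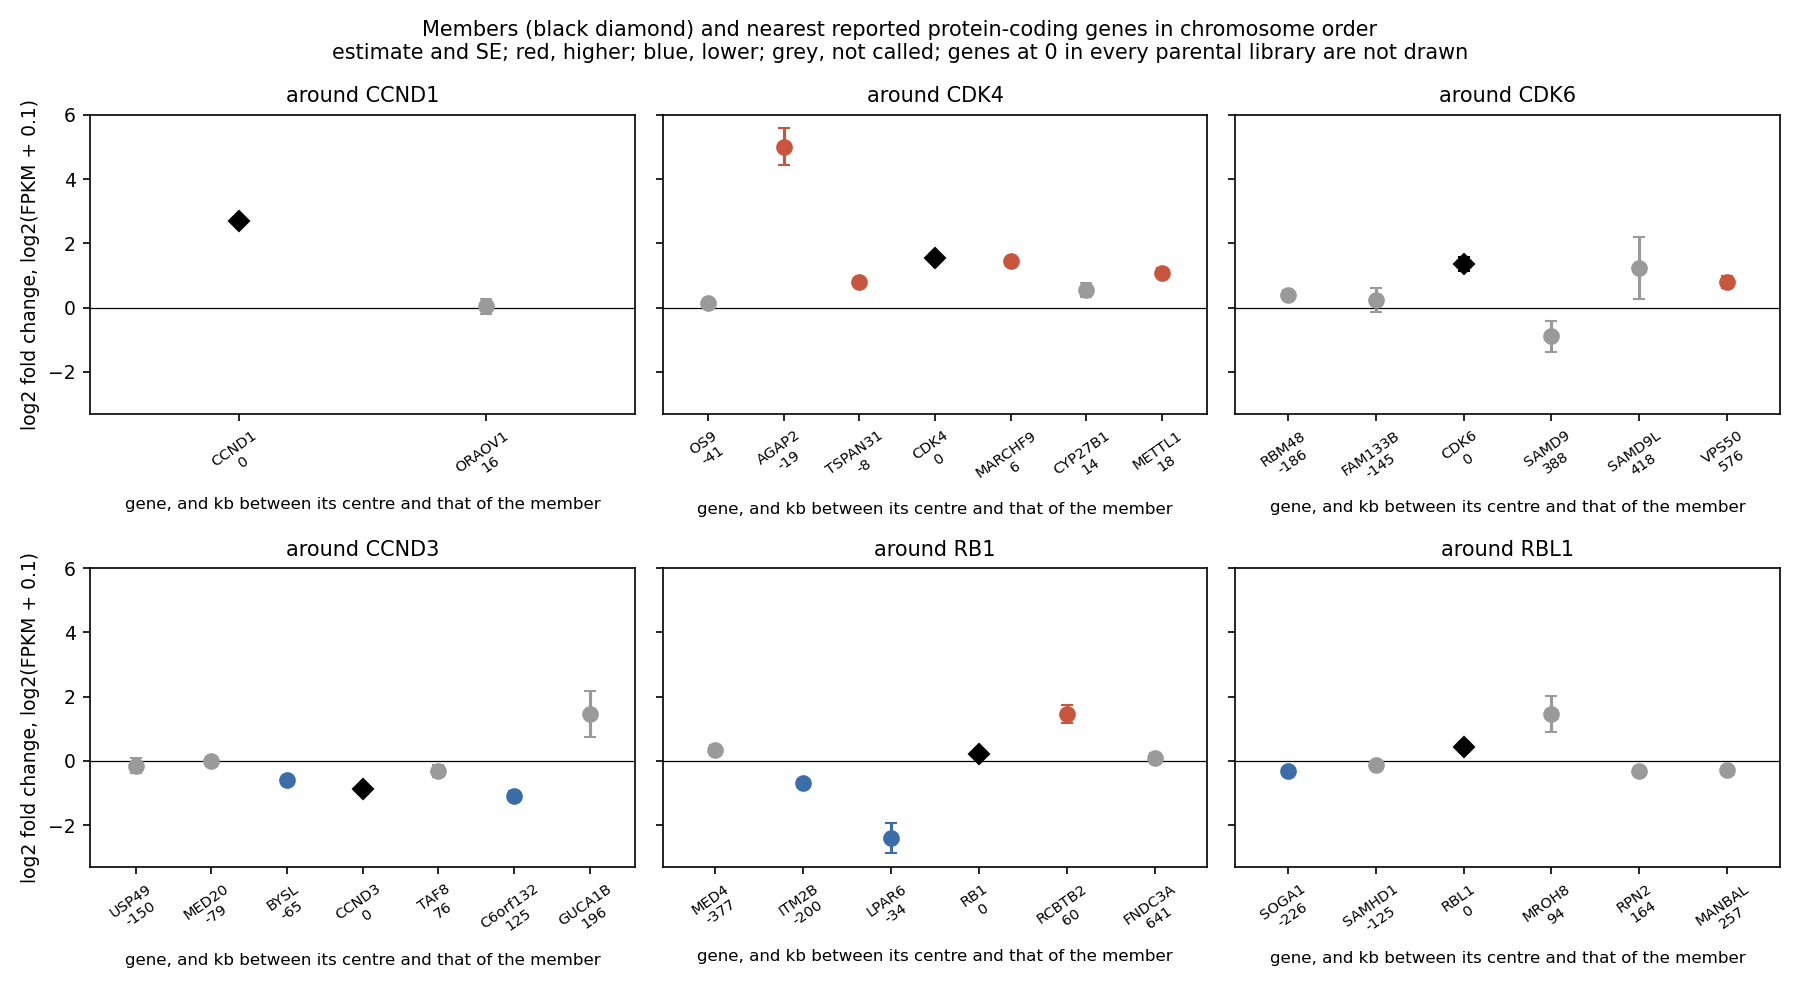
Log2 fold change of log2(FPKM + 0.1) with its SE for 6 members (black diamonds) and their nearest reported protein-coding genes in chromosome order, with the distance between gene centers in kb under each name (red called higher, blue lower, grey not called). Genes at 0 in every parental library are not drawn, among them MYEOV near CCND1 and TLDC2 near RBL1, both called higher. Around CDK4, 4 of the 6 neighbors are red, and beside CCND1 the drawn neighbor ORAOV1 lies near 0.

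Over 12368 protein-coding genes that averaged 1 FPKM or more, likeness to a member was measured by the mean absolute difference of log2 values across the 6 libraries after centering each gene. Nearest to CCND1 were SH3BGRL2 (0.0435), UGDH (0.0528) and CITED2 (0.0547), with log2 fold changes of 2.65, 2.71 and 2.61. Nearest to RB1 were ZNF672 (0.0256), MARCHF8 (0.0358) and GLTP (0.0380), with log2 fold changes of 0.18, 0.22 and 0.18, none of them called.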

How the data were processed

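RNA was sequenced as 50 bp single-end reads, and per the methods the authors used TrimGalore 0.4.3 for trimming, STAR 2.5.3 for alignment and Cufflinks 2.2.1 on GENCODE 25 for expression. The submitters' processing notes instead name mm10, Trimmomatic 0.27 and FastQC 0.10.1, while identifiers and loci in the table are human GRCh38. The authors deposited 1 table of FPKM values per gene, whose header does not name the unit. The 24468 of 58024 genes that averaged 0.1 FPKM or more were compared on log2(FPKM + 0.1) with limma 3.58.1 in R 4.3.3 (linear model, empirical Bayes with a trend) and Benjamini-Hochberg adjustment, a call being an adjusted p under 0.05. A fold change on this scale understates the change of low genes. On simulated data with 200 changed genes among 24468, 72 were called, all with the right sign, as was 1 unchanged gene. The changes were of 1 or 2 units on the log2 scale, and 48 of the 97 changes of 2 log2 units were called. In the data 44.4% of the genes were called, far more than were changed in the simulation. The adjustment is stricter where few genes change, so these numbers do not give the share of changes missed in the data.

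Gene positions are from GENCODE 44. Read estimates assumed 200-base fragments. Members and lists were chosen with earlier results of these data known. Named were the members, the 3 genes with the smallest adjusted p of each list, a set of core regulators, the called neighbors and the 3 genes nearest in profile to RB1 and CCND1. ORAOV1, OS9, CYP27B1, MTAP, LIN37, FBXO31, TK1, CHGA, SOX2, MYCN, DCN and CD3E were named after their values were seen. Alternatives changed the pseudocount, filter, scaling, variance model and neighbor distance, blocked on replicate number and left out each library. Some genes counted in the lists and among the neighbors are not reported here by name.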

Additional observations from a re-analysis of the deposited data

How the results depend on the processing

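The calls of CCND1, CDK4, CDK6 and CCND3 kept their direction and their side of the threshold under all 15 alternatives. The member count of 5 calls ranged from 4 to 6, and only RBL1 and RB1 crossed the threshold. RBL2 changed sign to 0.0072 under quantile normalization and to 0.014 under median ratio scaling, and the cause was not tested. Of 85 named genes, 71 kept direction and side under every alternative. With each library left out, 9303 to 10190 genes were called in all, 36 to 43 list genes higher and 24 to 26 lower, and 18 to 22 neighbors. Only 3 libraries per group and low estimated read numbers limit CCND2 and CDKN2B.

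The numbers 0, 1 and 2 appear in both groups. Over 16382 genes, the deviations of same-numbered libraries correlated at -0.001 to 0.018 and those of differently numbered libraries at -0.032 to 0.030. No pairing by number was seen, and whether same-numbered libraries share a culture or a batch was not tested. Parental 0 and resistant 0 correlated less (0.0018) than parental 2 and resistant 0 (0.030), so not every library correlated best with its own number. With the replicate block 9463 genes were called (4670 higher, 4793 lower), beside 10868 without it, and 4 members, 3 higher and 1 lower, as RBL1 reached an adjusted p of 0.0505 by limma. The block left 40 list genes higher, 26 lower and 19 neighbors called.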

Other observations

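Other called neighbors lay near CCND2, RBL2, RBL1 and CDKN2B. Near CCND2, which was almost silent, TIGAR, a regulator of glycolysis, fell from 13.4 ± 6.78 to 2.48 ± 1.49 FPKM and PARP11 fell from 6.30 ± 0.823 to 0.543 ± 0.113 FPKM (SD, n = 3), while RAD51AP1, a recombination factor, and C12orf4 rose by 0.48 and 0.55 on the log2 scale. FTO, an RNA demethylase gene near RBL2, rose from 55.5 ± 4.31 to 108 ± 14.6 FPKM. TLDC2, near RBL1, had 0 in each parental library and 2.72 ± 0.476 FPKM in resistant cells. DMRTA1, on the far side of CDKN2B, had 0 in each parental library and 0.446 ± 0.0137 FPKM in resistant cells. SOGA1, farther out on the same side of RBL1, had a log2 fold change of -0.32, and its call was lost without parental library 0 or 2, without resistant library 0, without the variance trend and with the replicate number as a block.

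Genes around the turnover and folding of the cyclins and kinases also differed. The chaperone genes HSP90AA1 and HSP90AB1 fell from 492 ± 41.1 to 303 ± 30.9 FPKM and from 580.2 ± 75.3 to 353 ± 27.2 FPKM, and SKP1, a subunit of the SCF ubiquitin ligase, fell from 257 ± 17.6 to 159 ± 11.7 FPKM. SKP2, the F-box protein that targets p27, rose by 0.46 on the log2 scale, and its call was lost without resistant library 1 or 2, without the variance trend and with the replicate number as a block. HSP90AB1 was named after its values were seen.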
